A study of Caenorhabditis elegans with 58 samples.

Results

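The F1-25C libraries and the F1-4DOA libraries of wild-type *Caenorhabditis elegans* were compared directly, without reference libraries that both groups share. The members are the 8 libraries whose titles and wt genotype place them in these groups, 4 in each, of 58 libraries in the series. The filter, scaling and dispersion of the fit came from all 36 libraries on parental conditions. In addition, 4 F1-1DOA libraries, from wild-type progeny of day 1 mothers at 20 °C, were used for levels only. The same contrast was also taken in 8 libraries of *set-2(zr1208)* animals, from the same 2 conditions. F1-25C animals were progeny of young hermaphrodites that had been moved to 25 °C as L4 larvae, and they grew at 25 °C themselves. Parental temperature and the animals' own temperature therefore cannot be told apart. F1-4DOA animals were progeny of mothers on day 4 of adulthood, and both generations lived at 20 °C. All libraries were made from whole animals at the L4 stage, each from a pool of worms and each from an independent experiment, so the replicates are separate cultures. The study asked how parental conditions change the transcriptome of the next generation, and the direct comparison asks which transcripts separate a warm generation from an old mother. Each count is the number of reads assigned to a gene. F1-25C libraries held between 6699637 and 15422397 counts, and F1-4DOA libraries between 10560316 and 14043055.

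*C. elegans* is an ectotherm whose growth rate, membrane lipids and stress responses follow its cultivation temperature. Heat shock factor drives the small heat shock proteins, the FOXO factor DAF-16 drives metallothionein and superoxide dismutase genes, and the p38 kinase PMK-1 drives a set of intestinal defence genes. A mother provisions her oocytes with yolk, whose vitellogenin proteins are made in the adult intestine, and the amount of provisioning is known to change with maternal age.

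Levels are given in CPM, that is counts scaled to a common library size, after TMM scaling, a correction for differences in library composition. A gene was called at an adjusted p under 0.05 in the quasi-likelihood test of edgeR over all 15306 genes tested, together with a log2 fold change beyond 1. Errors on log2 fold changes are standard errors from that fit. Of these genes 284 were called, which is 1.86% of those tested. The 184 genes higher in F1-25C were 1.2% and the 100 genes higher in F1-4DOA were 0.653%. The median log2 fold change of all genes tested was -0.01. The 4 F1-25C values did not overlap the 4 F1-4DOA values in CPM for 259 of the 284 called genes, against 8.02% of all genes tested. Scaling by library totals alone moved the median of all genes to 0.14 and gave 305 genes higher in F1-25C and 75 higher in F1-4DOA.

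The 8 libraries were not alike within their groups. F1-4DOA replicate 4 correlated with the other F1-4DOA libraries at 0.952 to 0.962 in log2 CPM, whereas those correlated with each other at 0.980 to 0.989. The summed level of 51 molting genes, which rise and fall with each larval cycle, was 5527 CPM, 4614 CPM, 4163 CPM and 1352 CPM in the F1-4DOA libraries. In F1-25C it was 2704 CPM, 3941 CPM, 2099.6 CPM and 1809.5 CPM. No molting gene was called, 42 of the 51 had a negative log2 fold change and the list median was -0.38. Without F1-4DOA replicate 4 the number of called genes was 486, of which 328 were higher in F1-25C and 158 in F1-4DOA, and 265 of the 284 genes kept their call and direction. With the molting level of each library as a covariate, an alternative chosen after seeing the data, 263 genes were called and 230 of the 284 kept their call. Stage within L4 cannot be told apart from tissue share or from RNA per cell in whole animals. Male-enriched genes summed to 3.12 to 4.61 CPM in F1-25C and 3.07 to 4.46 CPM in F1-4DOA. Pan-neuronal genes summed to 286 to 385 CPM and to 283 to 429 CPM. Muscle markers summed to 10119 to 13503 CPM in F1-25C and to 12275 to 19786 CPM in F1-4DOA. The lowest F1-4DOA sum was that of replicate 4, with the others at 16476 to 19786 CPM. None of 10 muscle markers was called, but 9 had a negative log2 fold change and 7 an unadjusted p under 0.05. Their median was -0.55.

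The genes that were higher in F1-25C by the smallest adjusted p were little known loci and defence genes. *Y53F4B.45* stood at 127, 128.8, 109 and 99.8 CPM in F1-25C and at 18.6, 17, 18.5 and 15.7 CPM in F1-4DOA. Its fold was 6.63, or 2.73 ± 0.17 on the log2 scale, with an adjusted p of 4.06e-13. *F15D4.5* stood at 20.7, 18.9, 23.1 and 22 CPM against 0.98, 0.714, 1.47 and 1.45 CPM, a log2 fold change of 4.18 ± 0.29. Each F1-25C library was above each F1-4DOA library for both genes, and for both the F1-1DOA libraries, from progeny of young mothers at 20 °C, overlapped F1-4DOA and not F1-25C. *F35E12.5*, now named *irg-5*, an infection response gene, reached 358, 344, 607 and 438 CPM in F1-25C and 33.8, 30.2, 23.1 and 37.6 CPM in F1-4DOA. This 14-fold difference had a log2 value of 3.81 ± 0.32. *T24B8.5*, now *sysm-1*, a target of PMK-1, stood at 49.9, 53.4, 64.3 and 61.5 CPM against 10.3, 6.69, 9.62 and 5.96 CPM.

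**Figure D1:**
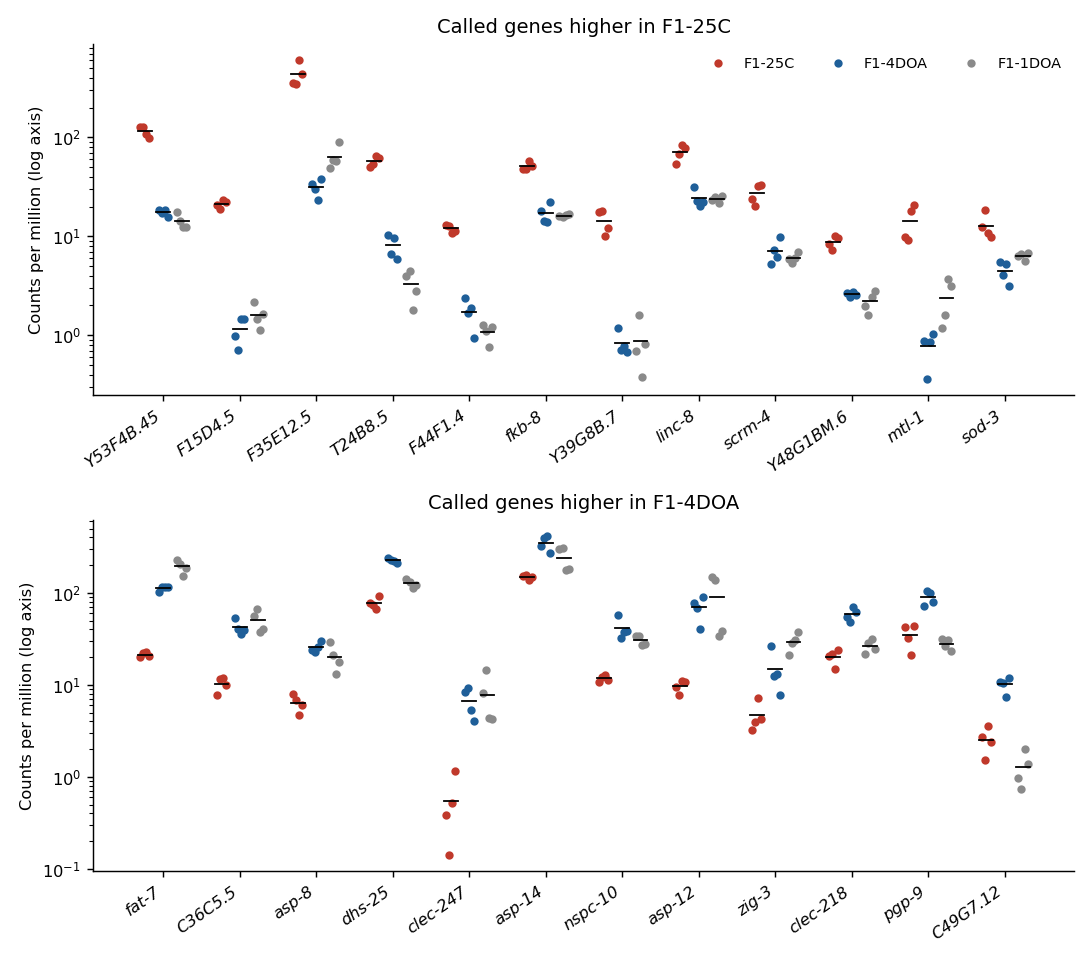
CPM on a log axis in each of the 4 libraries of F1-25C, F1-4DOA and F1-1DOA for 12 called genes higher in F1-25C (top) and 12 called genes higher in F1-4DOA (bottom). Points are libraries and bars are group means. The F1-25C and F1-4DOA points do not overlap for any gene shown, and the F1-1DOA points lie with F1-4DOA for most genes of the top row, with *mtl-1*, *sod-3* and *F35E12.5* between the groups.

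The other genes that led in this direction were of mixed function. *fkb-8*, a peptidyl-prolyl isomerase of the FK506-binding family, stood at 47.6 to 57.2 CPM in F1-25C and 13.8 to 22.5 CPM in F1-4DOA. *scrm-4*, of the phospholipid scramblase family, stood at 20.3 to 32.9 CPM against 5.29 to 9.88 CPM. *clec-17*, a C-type lectin, stood at 2.92 to 5.61 CPM against 0.0892 to 0.698 CPM. These 3 genes were separated in every pair of libraries. *F44F1.4*, *Y39G8B.7*, *linc-8*, *Y68A4A.13* and *Y48G1BM.6* completed the 12, with log2 fold changes of 2.81, 4.10, 1.56, 5.02 and 1.78. *Y68A4A.13* was at 7.34 to 10.3 CPM in F1-25C and at 0.155 to 0.392 CPM in F1-4DOA. The largest fold changes among called genes without overlap were those of *dod-21*, *Y68A4A.13*, *F14F8.8*, *mtl-1* and *F15D4.5*. *dod-21*, a gene regulated downstream of DAF-16, had a log2 fold change of 6.14 ± 1.21 that came mainly from F1-25C replicate 3. Its F1-25C values were 0.128, 0.14, 6.57 and 1.56 CPM, whereas 3 F1-4DOA libraries held none and the fourth was at 0.0776 CPM.

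Stress genes were higher in F1-25C only in part. *mtl-1*, a metallothionein, was at 9.95, 9.08, 17.9 and 20.6 CPM in F1-25C and 0.882, 0.357, 0.854 and 1.02 CPM in F1-4DOA, a log2 fold change of 4.19 ± 0.80 with an adjusted p of 0.0018. *sod-3*, the mitochondrial manganese superoxide dismutase, was at 12.4, 18.4, 10.8 and 9.74 CPM against 5.49, 4.1, 5.28 and 3.15 CPM. With *dod-21* they made 3 of 16 genes of the list of DAF-16 responsive genes, or 18.8% against 1.86% of all genes. All 3 were higher in F1-25C, 5 of the 16 had a negative log2 fold change, and the list median was 0.25. The list does not separate genes that DAF-16 raises from genes that it lowers, and *dod-21* also counts among the infection response genes. Activity of DAF-16 was not tested. Of the 3 heat-inducible heat shock genes tested, *hsp-16.41*, a small heat shock protein, was called, or 33.3% against 1.86% of all genes. It stood at 5.93, 9.64, 16.3 and 14.8 CPM in F1-25C and at 0.686, 0.357, 1.09 and 2.64 CPM in F1-4DOA, with a log2 fold change of 3.27 ± 0.75 and an adjusted p of 0.0103. Without F1-4DOA replicate 2 that p was 0.0561. *hsp-16.2* stood at 5.87, 8.8, 14.8 and 13.4 CPM against 1.67, 1.34, 1.47 and 4 CPM, with an adjusted p of 0.0514. *hsp-70* stood at 5.17 to 9.12 CPM against 4.02 to 7.23 CPM and was not called. The groups overlapped for *hsp-70* and for neither *hsp-16* gene. None of 40 constitutive chaperones was called, with 5 at an unadjusted p under 0.05, and their median was -0.08. Among the other small heat shock genes *hsp-12.3* was lower in F1-25C, at 1.99 to 3.35 CPM against 4.42 to 7.66 CPM.

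Genes of the ubiquitin ligase adaptor families were called mostly in the direction of F1-25C. These families, the MATH and BTB domain proteins and the F-box proteins, are large in nematodes and supply substrate receptors for cullin ligases. Of 66 MATH and BTB genes tested, 11 were higher in F1-25C and 1, *math-48*, was higher in F1-4DOA, which is 18.2% of the list against the 1.86% of all genes. Of the 66, 53 had a positive log2 fold change and the list median was 0.42. *math-37* stood at 7.91, 6.84, 10.3 and 8.64 CPM in F1-25C and at 1.96, 2.68, 1.86 and 1.19 CPM in F1-4DOA. *btb-16* stood at 18.4, 23.9, 21 and 18.1 CPM against 9.9, 8.39, 7.37 and 5.19 CPM. *math-44* and *bath-45* were also higher, by 1.11 and 1.43 on the log2 scale. *math-48* ran the other way, with 2.23 to 3.62 CPM in F1-25C and 5.35 to 9.88 CPM in F1-4DOA. Of 146 F-box genes, 9, or 6.16%, were higher in F1-25C and none was higher in F1-4DOA, with a list median of 0.33. *fbxa-166* stood at 5.1, 3.35, 3.62 and 5.07 CPM against 0.686, 0.625, 0.854 and 0.511 CPM. *fbxa-24*, *fbxa-53*, *fbxa-51* and *fbxa-135* were higher by 1.90, 1.57, 1.14 and 2.33 on the log2 scale. Many members of both families are close paralogs, and reads that fit more than 1 of them may be split or dropped by the counting. The counts moved with the libraries and the filter. MATH and BTB calls higher in F1-25C were 16 of 68 genes without F1-4DOA replicate 4, 7 without F1-4DOA replicate 1 or 3, and 4 of the 46 genes whose mean count reached 50. F-box calls in that direction were 13 of 150 genes without F1-4DOA replicate 4, where 2 were lower, then 6 without F1-4DOA replicate 2 or 3 or F1-25C replicate 3, and 2 of 72 genes under that minimum.

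The genes higher in F1-4DOA by the smallest adjusted p were of mixed function, with a desaturase first. *fat-7*, a stearoyl-CoA desaturase that makes oleic acid, stood at 20, 21.9, 22.7 and 20.5 CPM in F1-25C and at 103, 116, 115.01 and 117 CPM in F1-4DOA. The difference was 5.30-fold, or -2.41 ± 0.19 on the log2 scale, with an adjusted p of 1.55e-10. The F1-1DOA libraries were higher still, at 153 to 230 CPM. It was the only call among 4 desaturases tested, or 25% against 1.86% of all genes. *fat-7* was the called gene with the smallest adjusted p in this direction. *dhs-25*, a short-chain dehydrogenase, stood at 77.3, 73, 66.9 and 92.8 CPM against 241, 230, 221 and 211 CPM. Its F1-1DOA values, 112 to 141 CPM, lay between both groups. Of 64 genes of fatty acid metabolism, 3 were called, or 4.69% against 1.86% of all genes, and all were higher in F1-4DOA. They were *cpt-5* and *cpt-3*, of the carnitine palmitoyltransferase family, and *ech-7*, of the enoyl-CoA hydratase family. *cpt-5* stood at 35.5, 31.4, 19.6 and 25.1 CPM against 68.7, 64.5, 75 and 49.3 CPM. *ech-7* stood at 40.2 to 52.9 CPM against 89.6 to 110 CPM, and its log2 fold change of -1.08 passed below 1 in size without F1-25C replicate 3. With the molting covariate *cpt-5* remained called. *ech-7* then had a log2 fold change of -0.99 with an adjusted p of 0.00239, so it missed the fold threshold alone, and *cpt-3* moved from -2.30 to -2.05 with an adjusted p of 0.0579. *cpt-3* was also not called in 4 of the 8 fits that left out a library.

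Aspartyl proteases, enzymes of the intestinal lumen and lysosome, were noticed in this group after the values were seen. Of 11 *asp* genes tested, 4 were higher in F1-4DOA and none was higher in F1-25C, and 10 had a negative log2 fold change. The calls were 36.4% of this group, against 1.86% of all genes. *asp-8* stood at 8.03, 6.84, 4.73 and 6.04 CPM in F1-25C and at 24.1, 22.5, 25.9 and 30.3 CPM in F1-4DOA. *asp-14* stood at 154, 157, 138 and 150 CPM against 319, 396, 415 and 274 CPM. *asp-12* stood at 9.44, 7.82, 11 and 10.8 CPM against 78.1, 68.4, 40.8 and 90.7 CPM, a log2 fold change of -2.82 ± 0.42. The groups were separate for these 3 genes and overlapped for *asp-17*, at 4.47 to 7.33 CPM against 7.15 to 29.6 CPM. The *asp* median was -0.46, and in the *set-2* contrast it was 0.06, with 2 genes called higher in *set-2* F1-4DOA. None of 10 intestine markers was called, but all 10 had a negative log2 fold change. Of these, 5 had an unadjusted p under 0.05, and the median was -0.34. Those markers summed to 5870 to 8410 CPM in F1-25C and 6692 to 11608 CPM in F1-4DOA, and their part in the result was not tested.

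Nematode-specific peptides, small secreted proteins of unknown role, were called only in the direction of F1-4DOA, with 8 of 30 genes called. That is 26.7% of the list, against 1.86% of all genes. The list median was -0.99 and 27 of 30 log2 fold changes were negative. *nspc-10* stood at 10.8, 12.15, 12.9 and 11.2 CPM in F1-25C and at 57.9, 32.1, 37.4 and 38.4 CPM in F1-4DOA. *nspc-14* stood at 23.5, 30.3, 30.1 and 23.8 CPM against 105, 59.1, 63 and 71.7 CPM. *nspc-9* and *nspc-13* lay at log2 fold changes of -1.59 and -2.52, and *nspc-16* and *nspc-1* at -3.60 and -1.09. The called genes *nspc-9*, *nspc-10*, *nspc-13* and *nspc-14* are neighbours among the genes tested, in the order of the WBcel235 annotation, and are near-identical in name and family, so reads may be shared between them. Over the alternatives run between 5 and 12 of the list were called, with 5 without F1-4DOA replicate 1 and 12 of 29 when only the groups compared were fitted. The summed level of the list was 259 to 329 CPM in F1-25C, 472 to 627 CPM in F1-4DOA and 322 to 399.6 CPM in F1-1DOA. The F1-4DOA sums overlapped neither of the other groups. The single genes were placed otherwise, since for *nspc-9*, *nspc-10*, *nspc-13*, *nspc-14* and *nspc-16* the F1-1DOA values overlapped F1-4DOA and not F1-25C. For *nspc-10* they were 27.4 to 34.2 CPM, and of the 6 genes named *nspc-1* alone had F1-4DOA apart.

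Other runs of called neighbours were seen on both sides. The genes *C36C5.5*, *C36C5.12*, *C36C5.14* and *C36C5.15* were all higher in F1-4DOA, which is every *C36C5* gene tested. They were grouped after their values were seen, so that full count is no separate result. The call of *C36C5.15* was lost in 4 of the 8 fits that left out a library, with adjusted p of up to 0.074. *C36C5.5* stood at 7.71, 11.6, 11.8 and 9.94 CPM in F1-25C and at 53.7, 40.2, 35.4 and 39 CPM in F1-4DOA. *C36C5.12* stood at 0.893 to 1.17 CPM against 4.89 to 6.27 CPM. In the F1-25C direction *bath-47*, *fbxa-166*, *C08E3.13*, *btb-13* and *ZC204.12* formed a run of 5, and *T26H5.8*, *T26H5.9* and *T26H5.10* a run of 3. Of the 174 genes higher in F1-25C that could be placed, 45, or 25.9%, had another such gene within 3 tested genes on either side, against 6.86% of all 13420 genes placed. Of the 92 higher in F1-4DOA, 23, or 25%, had another such gene in that window, against 3.71%. Neighbours that share reads add to these counts, and their part was not tested.

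C-type lectins, sugar-binding proteins of defence and the intestinal lumen, were called in both directions, with 4 of 127 higher in F1-25C and 8 higher in F1-4DOA. Together these were 9.45% of the list, against 1.86% of all genes. The list median was -0.08, close to that of all genes. *clec-247* stood at 0.383, 0.14, 0.517 and 1.17 CPM in F1-25C and at 8.43, 9.28, 5.28 and 4 CPM in F1-4DOA, a log2 fold change of -3.47 ± 0.43. *clec-218* stood at 20.5, 21.6, 14.7 and 23.7 CPM against 54.6, 48.6, 69.3 and 62.7 CPM. *clec-10* stood at 16.6 to 29.2 CPM against 56.2 to 87.7 CPM, and *clec-3* at 0.978 to 2.66 CPM against 5.36 to 9.73 CPM. Lysozymes and saposins were also mixed, with 2 of 28 higher in F1-25C and 1 lower, or 10.7% called. *spp-18*, a saposin-like gene, stood at 76.4 to 90.7 CPM in F1-25C and 19.5 to 39.2 CPM in F1-4DOA. *lys-7*, a lysozyme, stood at 263, 288, 114 and 107 CPM against 65.4, 52.7, 111 and 46.7 CPM, so the groups overlapped. *lys-5* stood at 2.1 to 3.64 CPM against 5.71 to 7.74 CPM. Of 20 infection response genes matched by their deposited names 2, or 10%, were called, *T24B8.5* and *dod-21*. The list also names *irg-5*, which the count table holds as *F35E12.5*. Matched by current names as well, 3 of 22 were called, all higher in F1-25C, while 13 of the 22 log2 fold changes were negative and the median was -0.06.

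Detoxification families also split. Of 57 UDP-glucuronosyltransferases, which attach sugars to lipophilic compounds, 3 were called and all were higher in F1-4DOA. That is 5.26% of the list, against 1.86% of all genes. *ugt-26* stood at 98.1, 107, 121 and 164 CPM in F1-25C and at 269, 244, 281 and 316 CPM in F1-4DOA. *ugt-15* stood at 0.222 to 0.638 CPM against 1.87 to 3.73 CPM, and *ugt-42* at 0.13 to 1.02 CPM against 0.766 to 3.63 CPM. Of 58 cytochrome P450 genes, 3 were higher in F1-25C and 1 was higher in F1-4DOA, or 6.9% called. *cyp-37B1* stood at 28.9, 18.2, 27 and 16.3 CPM against 3.14, 3.75, 7.68 and 3.66 CPM. *cyp-32B1* and *cyp-34A4* were higher by 1.28 and 1.07 on the log2 scale, and *cyp-33C8* was lower, at 7.84 to 10.3 CPM against 12 to 38.2 CPM. Calls of this size with an adjusted p near 0.05 were fragile. Those of *ugt-42*, *cyp-34A4*, *grd-11* and *wrt-4* were each lost in 6 of the 8 fits that left out a library, with adjusted p of up to 0.135, 0.106, 0.252 and 0.172. Those of *lys-5*, *lys-7*, *cyp-32B1* and *cyp-33C8* were each lost in 4 of the 8.

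**Figure D2:**
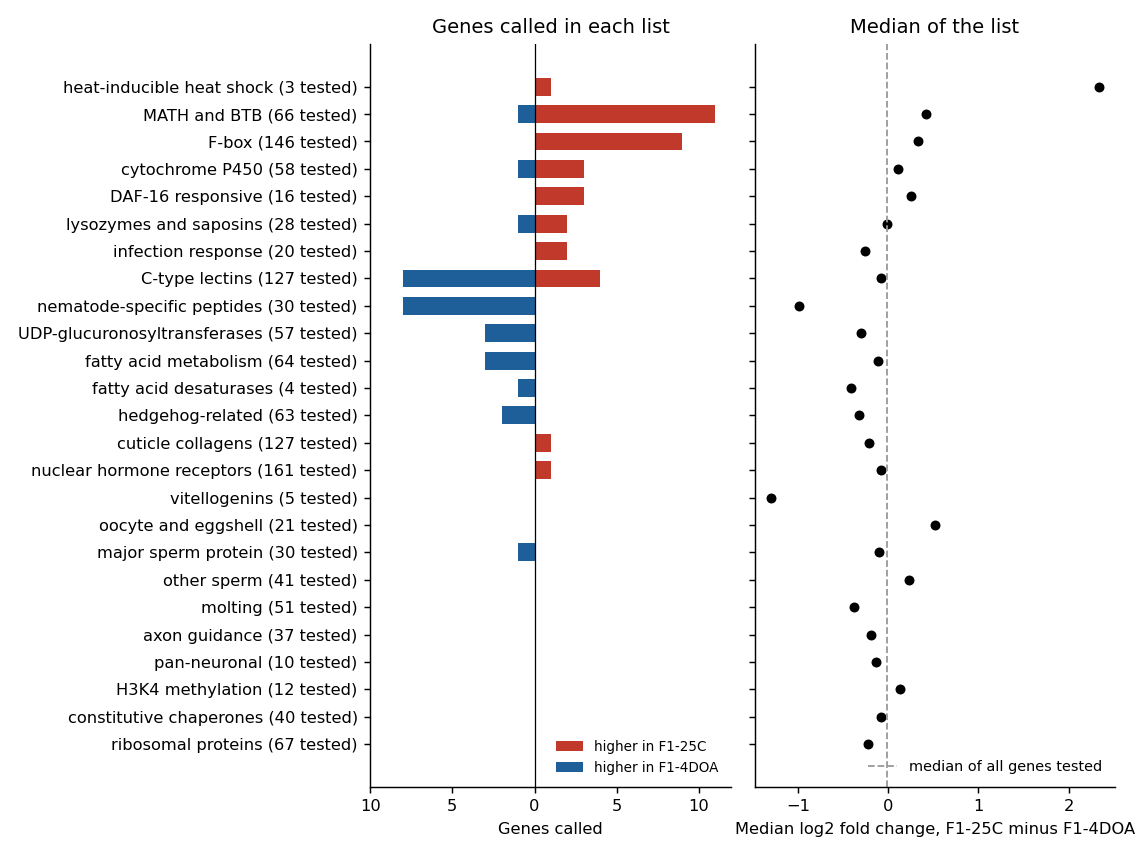
Number of genes called in each direction (left, genes higher in F1-4DOA drawn to the left of 0) and median log2 fold change (right) for 25 gene lists, with the number of members tested in brackets. The dashed line is the median of all genes tested. MATH and BTB and F-box genes lie mostly to the right, and nematode-specific peptides, glucuronosyltransferases and fatty acid genes to the left, while the vitellogenins have a low median and no call.

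Vitellogenins had the lowest median, -1.30, of the 47 lists, leaving aside groups formed after their values were seen. None of the 5 genes was called, with 3 at an unadjusted p under 0.05, whereas 3 were called when only the groups compared were fitted. Their summed level was 13046 CPM, 9474 CPM, 4912 CPM and 9585 CPM in F1-25C and 16439.7 CPM, 21660.1 CPM, 26775 CPM and 17861 CPM in F1-4DOA. The F1-1DOA libraries lay lower than both, at 1625 to 6358 CPM, with F1-1DOA replicate 3 inside the F1-25C range. *vit-6*, whose product is the precursor of a separate pair of yolk proteins, stood at 4933 CPM, 3750.1 CPM, 1888 CPM and 3979 CPM against 6838 CPM, 9385 CPM, 11776 CPM and 7754 CPM. Its log2 fold change was -1.30 ± 0.49 with an adjusted p of 0.164. *vit-4* and *vit-5* had values of -1.53 and -1.75 with adjusted p of 0.151 and 0.291, and neither group overlapped the other. *vit-1* and *vit-2* had values of -0.83 and -0.93 and their groups overlapped. Reads may be shared among *vit-3*, *vit-4* and *vit-5*, which are close paralogs. *col-19*, a collagen of the adult cuticle, stood at 583 to 1318 CPM in F1-25C, 1045 to 1770.1 CPM in F1-4DOA and 186 to 502 CPM in F1-1DOA. The adult collagen list as a whole did not follow *col-19*. Its summed level was 3988 to 6306 CPM in F1-25C, 4070 to 8178.5 CPM in F1-4DOA and 5160 to 9550 CPM in F1-1DOA. None of the 8 adult collagen genes was called, and 1 was when only the groups compared were fitted.

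**Figure D3:**
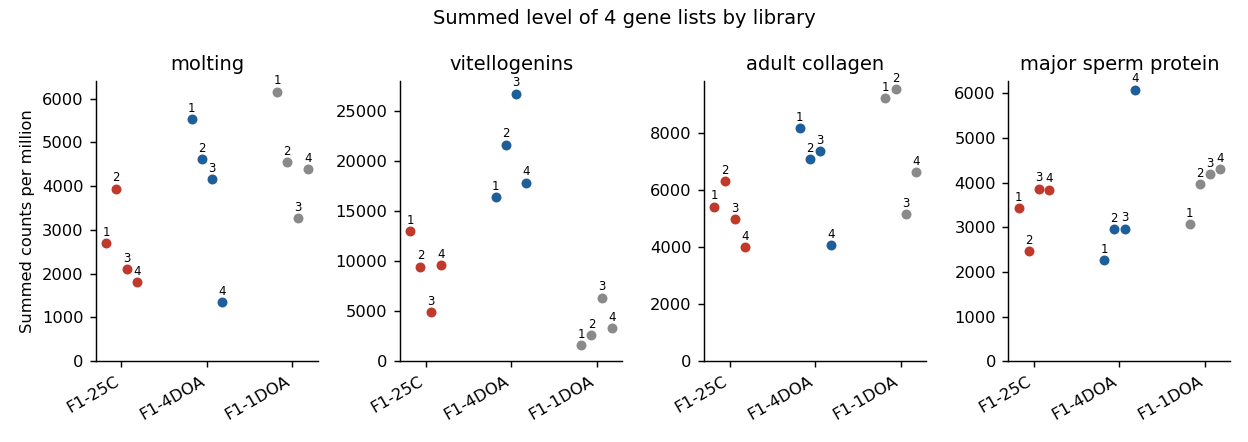
Summed CPM of 4 gene lists in each library of F1-25C, F1-4DOA and F1-1DOA, with replicate numbers beside the points. F1-4DOA replicate 4 has the lowest molting sum, 1352 CPM, and the highest major sperm protein sum, 6084 CPM, and the vitellogenin sums of F1-25C and F1-4DOA do not overlap.

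The germline lists gave 1 call, and their counts of calls moved with F1-4DOA replicate 4 and the molting level. None of 28 germline and meiosis genes was called, with 6 at an unadjusted p under 0.05 and a median of 0.14. None of 21 oocyte and eggshell genes was called, but 12 had an unadjusted p under 0.05 and 18 of 21 log2 fold changes were positive. Their median was 0.52, it stayed between 0.36 and 0.71 over the alternatives run, and it was 0.62 in the *set-2* contrast. The sums were 3330 to 5579 CPM in F1-25C and 2701 to 4862 CPM in F1-4DOA. Of 30 major sperm protein genes, which encode the cytoskeletal proteins of sperm, *msp-65* was called, or 3.33% against 1.86% of all genes. Its log2 fold change was -1.41 ± 0.34, and without F1-4DOA replicate 4 its adjusted p was 0.055. With the molting covariate 6 major sperm protein genes were lower in F1-25C, and without F1-4DOA replicate 1 there were 5. Outside these lists *fog-3*, a gene needed for the sperm fate and named after its values were seen, was also called. It stood at 3.84 to 5.45 CPM in F1-25C and 7.29 to 11.2 CPM in F1-4DOA. Its call was lost in 4 of the 8 fits that left out a library. None of 41 other sperm genes was called, with 8 at an unadjusted p under 0.05. Without F1-4DOA replicate 4 there were 4 other sperm genes and 2 oocyte and eggshell genes higher in F1-25C. No gene was called among 12 genes of H3K4 methylation, 37 of axon guidance and 10 pan-neuronal genes. Of these, 0, 3 and 1 had an unadjusted p under 0.05, and the medians were 0.13, -0.18 and -0.13. The H3K4 genes covered *set-17* and *set-30*, which encode SET domain proteins, *set-16*, *ash-2*, *rbbp-5*, *wdr-5.1* and *dpy-30*, which build the methyltransferase complexes, and *rbr-2*, *spr-5*, *lsd-1*, *amx-1* and *utx-1*, which include demethylases. Their log2 fold changes ran from -0.40 for *set-16* to 0.44 for *lsd-1*. The gene *set-2* itself was not among these 12, so the list gives no result for it. *zig-3*, a secreted immunoglobulin-domain protein, was the 1 call among 10 *zig* genes, or 10% against 1.86% of all genes. It stood at 3.25, 3.91, 7.24 and 4.22 CPM in F1-25C and 26.2, 12.5, 13.2 and 7.83 CPM in F1-4DOA. *gcy-18*, a receptor guanylyl cyclase of the AFD thermosensory neurons that was also named after its values were seen, stood at 1.12 to 1.66 CPM against 1.96 to 4.89 CPM.

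Long noncoding RNAs were noticed after the values were seen. Of 52 *linc* entries tested, 7 were higher in F1-25C and 1, *linc-72*, was higher in F1-4DOA. The calls were 15.4% of these entries, against 1.86% of all genes. Those of *linc-41* and *linc-59* were lost in 5 and 4 of the 8 fits that left out a library. *linc-8* stood at 54.5, 68.4, 84 and 78.3 CPM in F1-25C and at 31.6, 22.8, 20.1 and 22.1 CPM in F1-4DOA. *linc-17* and *linc-24* were higher by 1.54 and 1.74 on the log2 scale. The library kit does not keep strand, so reads from a gene on the opposite strand cannot be told apart from those of a *linc* locus.

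The F1-1DOA libraries were used only to describe which group had moved, without a test. The range of the 4 F1-1DOA values overlapped F1-4DOA and not F1-25C for 188 of the 284 called genes, or 66.2%, against 12% of all genes tested. It overlapped F1-25C and not F1-4DOA for 22 genes, or 7.75%, against 4.43% of all genes tested. It overlapped neither for 23 genes and both for 51. Thus 139 genes were higher and 49 were lower in F1-25C alone, and 19 were higher and 3 were lower in F1-4DOA alone. The count of 22 with F1-4DOA alone apart was unstable. It was 83 without F1-4DOA replicate 4 and 39 when only the groups compared were fitted, and it fell to 10 without F1-25C replicate 3, to 12 without F1-25C replicate 4 and to 13 without F1-25C replicate 1 or F1-4DOA replicate 2.

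The genes that set F1-4DOA alone apart included *clec-10*, *clec-218*, *cpt-5*, *nspc-1* and *ugt-15*, all higher there. After their values were seen, *pgp-9*, *C49G7.12* and *C06B3.7* were added as examples. *pgp-9*, an ABC transporter of the P-glycoprotein family, stood at 72.7, 104.3, 100.3 and 80 CPM in F1-4DOA, at 42.3, 32, 21.2 and 43.4 CPM in F1-25C and at 23.6 to 31.7 CPM in F1-1DOA. *C49G7.12* stood at 7.29 to 11.9 CPM in F1-4DOA, 1.54 to 3.55 CPM in F1-25C and 0.736 to 1.98 CPM in F1-1DOA. *C06B3.7* stood at 17.7, 7.76, 11.2 and 23.8 CPM in F1-4DOA, 1.53 to 2.92 CPM in F1-25C and 0.368 to 1.7 CPM in F1-1DOA. Its adjusted p of 0.0475 exceeded the threshold whenever a library was left out. The call of *C49G7.12* was lost in 6 of these 8 fits and that of *pgp-9* in 4. The 3 genes that were lower in F1-4DOA alone were *F36D1.8*, *C13A2.3* and the transcript entry of *zip-8*.

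For 9 called genes F1-1DOA lay between the groups, so that F1-25C and F1-4DOA stood on opposite sides. They were *F35E12.5*, *F09C8.1*, *sod-3*, *mtl-1*, *Y73B3A.13* and *T26H5.8*, higher in F1-25C, and *dhs-25*, *W07B8.1* and *F42A10.7*, higher in F1-4DOA. For *mtl-1* the F1-1DOA values were 1.17, 1.59, 3.68 and 3.16 CPM, below every F1-25C library and above every F1-4DOA library. For 14 genes both groups lay on the same side of F1-1DOA at different distances. *fat-7* and *C36C5.12* were below F1-1DOA in both groups, whereas *ugt-26*, *cyp-33C8* and *pqn-60*, whose call was lost in 6 of the 8 fits that left out a library, were above it in both, and further in F1-4DOA. *T24B8.5* was above F1-1DOA in both groups and further in F1-25C, with F1-1DOA values of 4.01, 4.42, 1.79 and 2.81 CPM.

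The same contrast in animals with the *set-2(zr1208)* allele of an H3K4 methyltransferase gene uses 8 other libraries. The *set-2* F1-4DOA libraries held between 2819460 and 31543107 counts. In these 2232 genes were called, 14.6% of those tested, with 1067 higher in *set-2* F1-25C and 1165 higher in *set-2* F1-4DOA. The count was 1304 without *set-2* F1-25C replicate 4 and 720 with the molting covariate. Of the 284 genes called in wild type, 276 had the same direction in *set-2*, against 67.7% of all genes tested. These were 180 of the 184 higher in F1-25C and 96 of the 100 higher in F1-4DOA. There 121 and 50 of them were called in the same direction, and 1, *msp-65*, was called in the opposite one. *F35E12.5* stood at 503 to 546 CPM in *set-2* F1-25C and 20.2 to 37.4 CPM in *set-2* F1-4DOA. *fat-7* stood at 27.1 to 39.5 CPM against 105 to 161 CPM, with a log2 fold change of -1.96 ± 0.18. *Y53F4B.45* and *dhs-25* had values of 2.52 and -1.51 in *set-2*.

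**Figure D4:**
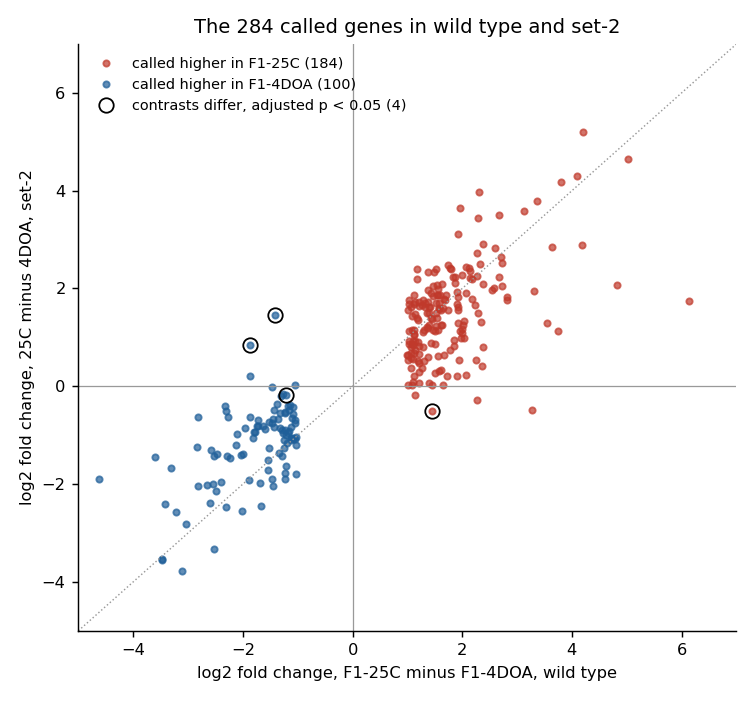
log2 fold change of the 284 genes called in wild type (horizontal) against the same contrast in the set-2 libraries (vertical), coloured by direction in wild type, with rings on 4 genes whose contrasts differed. The dotted line marks equal values. Of the 284 points, 276 lie in the same direction in both.

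Some genes had contrasts that differed between genotypes. The interaction called 78 genes, or 0.51%, of which 12 were more positive and 66 more negative in wild type, and 20 of them were major sperm protein genes. The count depended on the fit, since 3 genes were called when only the 4 groups concerned were fitted, and between 14 and 1139 when a library was left out. Nor was the split by direction stable. With library totals 23 were more positive and 20 more negative, where the median difference over all genes was 0.28 in place of 0.04, and without *set-2* F1-25C replicate 3 there were 584 and 555. *F46F5.9*, *msp-65* and the transcript entry of *rps-6* were called in each of the 25 fits run. *F46F5.9*, now *msrp-4*, stood at 1.26 to 2.29 CPM in F1-25C and 4.02 to 7.92 CPM in F1-4DOA, and at 14.2 ± 2.85 and 7.73 ± 3.11 CPM (mean ± SD, n = 4) in the *set-2* groups, so the direction turned. *msp-65* stood at 7.26 to 10.6 CPM against 14.1 to 42.2 CPM in wild type and at 14.2 to 30.7 CPM against 4.86 to 13.3 CPM in *set-2*. The summed major sperm protein level was 3461 to 7231 CPM in *set-2* F1-25C and 1198 to 2562 CPM in *set-2* F1-4DOA. The molting sum in these groups was 2026 to 3930 CPM and 3844 to 7921 CPM, and its part in the sperm gene difference was not tested. *hsp-16.41* had a log2 fold change of -0.49 ± 0.60 in *set-2*, where the 4 *set-2* F1-4DOA libraries were at 67.3, 7.3, 1.74 and 56.7 CPM. The difference between its contrasts, 3.76 ± 0.96, had an adjusted p of 0.0567. For *hsp-70* the contrasts differed by 3.22 ± 0.74 with an adjusted p of 0.0379, and the *set-2* F1-4DOA values were 19.9, 14.4, 2.08 and 50.4 CPM.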

How the data were processed

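RNA was sequenced from pools of whole L4 animals, and 36 of the 58 libraries, in 9 groups of 4, concern parental conditions. The authors trimmed reads, aligned them to WS220 (ce10) with RNA STAR and assigned them with htseq-count, and deposited 1 raw, unnormalized count for every gene and library. Whether htseq-count used strand, and its overlap mode, is not given in the sources used here. Of 45410 entries, 3832 are named by a transcript, of which 2863 matched a symbol in the RefSeq table of assembly WBcel235. Its coordinates are not printed, since the builds differ.

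The analysis used edgeR 4.0.16 under R 4.3.3. The 36 libraries were fitted in 1 robust quasi-likelihood model with TMM factors after the default filter on low counts. The contrasts were F1-25C minus F1-4DOA in wild type, the same in *set-2*, and their difference. Standard errors are the log2 fold change divided by the root of F. Log2 CPM used a prior count of 2. DESeq2 1.42.0 and other settings were alternatives, and the fit was tested on simulated data. Totals of 6699637 to 15422397 counts leave genes near 1 CPM with few reads per library.

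The groups, gene lists and tests were chosen with earlier results of these data known. Lists are described by counts and medians only, and were matched by deposited names. Current names would add 209 memberships of tested entries over 34 of the 47 lists, of which 1, *F35E12.5*, was called. Named genes are up to 12 per direction with the smallest adjusted p and the 5 with the largest fold change among called genes that have a gene name and do not overlap, up to 5 called members of each list, all members of the vitellogenin, heat-inducible, adult collagen and H3K4 lists where described, and up to 5 genes of the interaction. Others are said to be chosen after their values were seen.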

Additional observations from a re-analysis of the deposited data

Results flagged for a closer look

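Of 266 sets of 4 values examined, 18 held 1 library whose gap to the nearest other exceeded the critical share of the group's range in Dixon's test, and chance gives about 1 in 20. In F1-25C these were *abu-2* at 0.960 CPM in replicate 3, *math-44* at 7.91 CPM in replicate 1, *nspc-16* at 0.279 CPM in replicate 2, *linc-59* at 8.10 CPM in replicate 2, *msp-53* at 20.5 CPM in replicate 2 and the transcript entry of *rps-6* at 1.08 CPM in replicate 1. In F1-4DOA replicate 1 they were *fat-7* at 102.5 CPM, *nspc-13* at 19.02 CPM, *nspc-16* at 4.80 CPM and *fbxa-53* at 2.55 CPM. In replicate 2 they were *nhr-2* at 0.357 CPM and *hsp-70* at 7.23 CPM. In replicate 3 they were *clec-10* at 87.7 CPM, *dod-21* at 0.0776 CPM, where the others held none, and *cyp-37B1* at 7.68 CPM. In replicate 4 they were *clec-3* at 5.36 CPM, *hsp-16.2* at 4.00 CPM, with the others at 1.34 to 1.67 CPM, and *msp-53* at 109 CPM, with the others at 37.4 to 48.6 CPM.

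The contrast of F1-25C with F1-4DOA differed between wild type and *set-2*, by the interaction test in edgeR, for 8 of the named genes. The wild-type log2 fold change minus that in *set-2* was -2.72 for *F46F5.9*, -1.04 for *Y39F10A.3*, 1.96 for *C04G6.6*, -2.86 for *msp-65*, -2.46 for *msp-53* and 3.22 for *hsp-70*. It was -1.86 and -1.71 for the transcript entries of *rps-6* and *rpl-30*, which hold few of these genes' reads and whose level is uncertain.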

How the results depend on the processing

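Leaving out 1 library gave 193 to 486 calls in wild type, 1304 to 2953 in *set-2* and 14 to 1139 for the interaction. In wild type 130 genes were called among those with a mean of at least 50 counts, where fewer genes were tested, and 479 with no fold threshold, which called 5593 in *set-2*. The molting covariate gave 720 calls in *set-2*. The interaction called 397 genes with DESeq2, 43 with library totals, 31 without a filter on low counts, 149 under the minimum mean of 50, 130 with the replicate number as a block and 3 with only the groups concerned, and the cause was not tested. Other counts of calls over all genes stayed within 1.5 times the main ones, and no named gene that was called changed direction under any alternative run. DESeq2 called 338 genes in wild type, with 281 of the 284 in the same direction. Fitting only the groups compared tested 14240 genes and called 246, with 140 higher in F1-25C and 106 higher in F1-4DOA. Of the 284 genes, 204 then kept their call and direction, and 183 kept them without F1-4DOA replicate 2. Same-numbered libraries deviated from their group means with correlations of -0.15, 0.21, -0.34 and 0.32, so no pairing by number was seen. So few correlations cannot settle whether libraries with the same number shared an experiment. The replicate block called 271 genes in wild type and 2288 in *set-2*. Genes at a few counts per library, and entries that share reads with a paralog, are the least precise.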

Other observations

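Other lists gave few calls. Of 63 hedgehog-related genes, which encode secreted proteins of the epidermis, *wrt-4* and *grd-11* were higher in F1-4DOA, and the list median was -0.32. That is 3.17% of the list, against 1.86% of all genes. *wrt-4* stood at 111, 182, 175 and 95.9 CPM in F1-25C and at 403, 384, 319 and 107 CPM in F1-4DOA, with F1-4DOA replicate 4 inside the F1-25C range. With the molting covariate neither was called, with adjusted p of 0.153 and 0.169. The 64 *abu* and *pqn* genes, which encode proteins rich in glutamine and asparagine, were grouped after their values were seen. They gave 4 calls, or 6.25%, all higher in F1-4DOA. *abu-4* stood at 2.93 to 3.57 CPM in F1-25C and 8.04 to 22.2 CPM in F1-4DOA. Of 48 transthyretin-like genes, *ttr-50* and *ttr-23*, or 4.17%, were higher in F1-25C, by 1.56 and 1.70 on the log2 scale. Their calls were lost in 3 and 7 of the 8 fits that left out a library, with adjusted p of up to 0.0849 and 0.125. Of 161 nuclear hormone receptor genes *nhr-2* was called, at 0.739 to 2.04 CPM against 0.357 to 0.621 CPM. Of 127 cuticle collagens *col-45* was called, at 0.813 to 1.96 CPM against 0.178 to 0.686 CPM. Such single calls were 0.621% and 0.787% of their lists, below the 1.86% of all genes. These calls were lost in 2 and 5 of the 8 fits. None of 67 ribosomal protein genes was called, with 11 at an unadjusted p under 0.05, and 64 of their log2 fold changes were negative with a median of -0.23.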
